A study of Mus musculus with 10 samples.

Results

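The scavenger receptor genes examined here are Msr1, Marco, Colec12, Scarb1, Scarb2, Olr1 and Lrp1, taken from the deposited count table by gene name. All 7 names matched 1 row each among the 46603 genes of the table. They were followed in macrophages sorted from 4T1 tumours, which grow from a mouse mammary carcinoma cell line. PoEMs were viable cells positive for CD11B, F4/80 and podoplanin (PDPN), and non-PoEMs were viable CD11B and F4/80 positive cells that lacked PDPN. Both fractions came from each of 5 tumours, numbered 1, 2, 4, 5 and 6, so that each group held 5 libraries of bulk RNA pre-amplified with SMART-Seq. The labels name no transgene or drug treatment, and the sources used here give no strain, sex or age of the mice. The study concerned the part of PDPN-bearing macrophages in lymphatic vessel growth and matrix remodelling, and the comparison here sets their scavenger receptor transcripts against those of the other macrophages of the same tumour.

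Scavenger receptors are a functional group rather than a single gene family. They bind modified lipoproteins, dying cells, microbes or protein complexes and carry them into endosomes and lysosomes, and macrophages are the cell type best known for this activity. Class A receptors (Msr1, Marco, Colec12) are trimers with a collagen-like stalk. Class B receptors (Scarb1, Scarb2) cross the membrane at both ends, and the class E receptor Olr1 is a C-type lectin-like protein. Lrp1 belongs to the LDL receptor family.

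Msr1 and Lrp1 were higher in PoEMs and Scarb1 was lower. Msr1, the macrophage receptor for acetylated and oxidised LDL, was 1.53-fold higher, and Lrp1, a large endocytic receptor for apolipoprotein E particles and for protease and inhibitor complexes, was 1.46-fold higher. Scarb1, the HDL receptor that takes up cholesteryl ester, was 1.20-fold lower in PoEMs. Colec12 was higher in PoEMs of every tumour. Its call depended on the settings: whether the tumour was part of the model, the scaling, and the libraries kept. Scarb2 and Olr1 did not pass the test, and Marco was counted in a single tumour. The 6 members that passed the filter on low counts included 2 called higher and 1 called lower (quasi-likelihood test of edgeR at an adjusted p under 0.05, by Benjamini and Hochberg over all 13595 genes tested). Of all genes tested 13.6% were called, 6.83% as higher and 6.77% as lower, and with 6 tested members these counts are given gene by gene rather than as a property of the group. The median log2 fold change was 0.16 over the 6 members and 0.01 over all genes tested.

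The libraries held 13319377 to 14883770 counts in PoEMs and 12597829 to 15406722 counts in non-PoEMs. Pdpn measured 189.8 to 247.8 CPM in PoEMs and 10.96 to 29.1 CPM in non-PoEMs (CPM, counts scaled to library size after TMM). Summed macrophage markers overlapped between the groups, at 30200 to 35000 CPM in PoEMs and 31500 to 36500 CPM in non-PoEMs, with 2 of 12 markers called higher and 1 lower. Of 10 fibroblast markers 9 were higher in PoEMs, and their sum was 289 to 472 CPM in PoEMs and 29.2 to 41.6 CPM in non-PoEMs, with no marker at 0 in either group. All 4 tested eosinophil markers were lower in PoEMs, with sums of 4.30 to 12.6 CPM in PoEMs and 57.2 to 141 CPM in non-PoEMs, and Epx, Prg2, Ear1 and Ear6 were at 0 in all PoEM libraries. Of 8 tested neutrophil markers 7 were lower and 1 higher in PoEMs, with sums of 119 to 148 CPM in PoEMs and 221 to 295 CPM in non-PoEMs, and none at 0. Of the other lists, monocyte markers had 3 lower and 1 higher of 8 tested. Their sum was higher, at 11600 to 17800 CPM in PoEMs and 6860 to 9920 CPM in non-PoEMs, most of it from the higher member, the fibronectin gene Fn1 (means of 14235 CPM in PoEMs and 7091 CPM in non-PoEMs), which other cell types also express. Conventional dendritic cell markers had 2 lower of 6, B and plasma cell markers 2 lower of 2, mast cell and basophil markers 1 lower of 2, and T and NK cell markers 1 lower of 1. The mast cell and basophil markers Fcer1a, Ms4a2 and Prss34 were at 0 in all PoEM libraries. Blood endothelial markers had 1 higher of 4 tested, and none of 2 lymphatic endothelial or 7 epithelial and tumour markers was called. The lymphatic endothelial marker Mmrn1 was at 0 in all non-PoEM libraries, and Ccl21a was at 0 in every library. The labels do not say whether the tumours came from separate mice, so p-values measure the spread between these libraries. In bulk samples fewer cells of a type and less RNA per cell cannot be told apart.

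**Figure D1:**
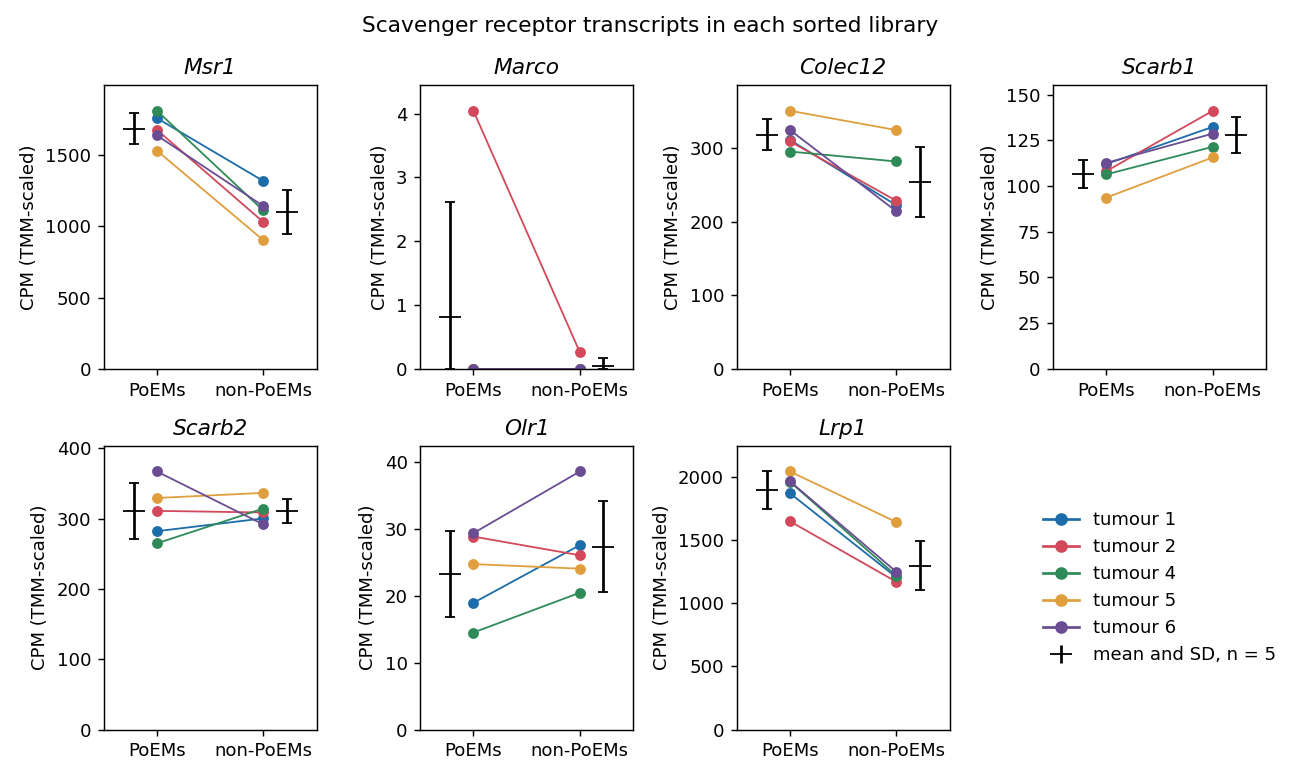
CPM of the 7 scavenger receptor genes (vertical axes, linear from 0) in the 5 PoEM and 5 non-PoEM libraries, with lines joining the libraries of a tumour and black bars giving the mean and SD (n = 5). Msr1 and Lrp1 lie higher in every PoEM library than in any non-PoEM library, Scarb1 lies lower in every PoEM library, and Marco is above 0 in tumour 2 only.

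Promoter windows are shown for 3 members that behaved differently: Lrp1, which was higher in PoEMs, Scarb2, whose level was nearly the same in both groups, and Olr1, which varied most between libraries among the tested members. Of the 7 members 4 had an entry in the RefSeq promoter table (GRCm38.p6, 250 bases before the RefSeq gene start and the 50 that follow): Lrp1, Scarb2, Olr1 and Marco. For Lrp1 and Olr1 the start in that table is the gene start in GENCODE M21, but for Scarb2 it lies 1176 bases inside the GENCODE gene. Capitals mark the GC box (GGGCGG), the ETS core bound by PU.1 (AGGAAG), the hypoxia response core (ACGTG) and the AP-1 motif (TGACTCA), searched on both strands.
Lrp1, minus strand, chr10:127621099-127621398: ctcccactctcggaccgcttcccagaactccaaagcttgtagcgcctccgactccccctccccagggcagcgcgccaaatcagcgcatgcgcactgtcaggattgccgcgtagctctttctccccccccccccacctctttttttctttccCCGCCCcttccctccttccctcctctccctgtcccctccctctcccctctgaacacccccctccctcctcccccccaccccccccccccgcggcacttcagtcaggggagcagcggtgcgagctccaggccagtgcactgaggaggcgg
Scarb2, minus strand, chr5:92505608-92505907: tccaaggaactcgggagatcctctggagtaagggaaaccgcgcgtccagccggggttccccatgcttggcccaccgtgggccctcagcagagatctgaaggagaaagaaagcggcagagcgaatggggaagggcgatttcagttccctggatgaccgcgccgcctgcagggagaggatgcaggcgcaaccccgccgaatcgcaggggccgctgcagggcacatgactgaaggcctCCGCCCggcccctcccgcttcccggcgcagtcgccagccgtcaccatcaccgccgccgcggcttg
Olr1, minus strand, chr6:129507116-129507415: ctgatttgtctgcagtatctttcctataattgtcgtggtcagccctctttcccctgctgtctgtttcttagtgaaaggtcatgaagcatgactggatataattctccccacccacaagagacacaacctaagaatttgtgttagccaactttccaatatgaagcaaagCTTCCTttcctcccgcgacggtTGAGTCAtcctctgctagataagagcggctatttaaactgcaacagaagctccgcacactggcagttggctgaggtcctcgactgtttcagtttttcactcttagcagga
The Lrp1 and Scarb2 windows were rich in G and C (67.7% and 67.3%) and held 1 GC box each, a motif found in 35.9% of 27025 promoter windows of the same length. The Olr1 window had 46.0% G and C, against a median of 52.7% over all windows. It held 1 AGGAAG and 1 TGACTCA, which occurred in 35.1% and 5.17% of the windows. ACGTG was in none of these 3 windows and in 19.7% of all windows. The GC box and the G and C content thus were shared by a member that was called and a member that was not.

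Among the class A receptors, Msr1 gave the clearest difference. Msr1 (ENSMUSG00000025044, chromosome 8, 39581685 to 39642673 of GRCm38, minus strand) measured 1760, 1678, 1812, 1532 and 1639 CPM in PoEMs of tumours 1, 2, 4, 5 and 6, against 1319, 1031, 1112, 903.6 and 1143 CPM in the non-PoEMs of the same tumours. The lowest PoEM library lay above the highest non-PoEM library, and tumour 5 was the lowest of both groups. The mean was 1684 ± 109 CPM in PoEMs and 1102 ± 153 CPM in non-PoEMs (SD, n = 5 each), which is 0.61 ± 0.09 (SE) as a fitted log2 fold change, with adjusted p = 0.00113 by edgeR. The ratio of PoEMs to non-PoEMs within a tumour ran from 1.33 in tumour 1 to 1.70 in tumour 5. The call held with any 1 library left out, with a highest adjusted p of 0.00474.

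Colec12 encodes a class A receptor with a C-type lectin domain, also known from endothelium and stroma. Colec12 (ENSMUSG00000036103, chromosome 18, 9707595 to 9882644, plus strand) measured 311.0, 309.1, 295.3, 350.7 and 324.6 CPM in PoEMs of tumours 1, 2, 4, 5 and 6, against 222.4, 228.4, 281.8, 324.4 and 214.1 CPM in non-PoEMs. PoEMs were higher in 5 of 5 tumours, but the groups overlapped, since the non-PoEM library of tumour 5 lay above most PoEM libraries. The means of 318.1 ± 21.0 and 254.2 ± 47.4 CPM (PoEMs and non-PoEMs, SD, n = 5 each) differed by 0.32 ± 0.11 (SE) as a fitted log2 fold change, with adjusted p = 0.0683 by edgeR, which missed the threshold. With the tumour as a block the fitted value was 0.34 ± 0.08 (SE) and the edgeR adjusted p = 0.0085, in a fit that called 28.2% of all genes tested, 13.8% as higher and 14.3% as lower. It was also called with scaling by library size alone (adjusted p = 0.0423) and without the non-PoEM library of tumour 5 (log2 fold change 0.43, adjusted p = 0.0105). The within-tumour ratio was 1.35 to 1.52 in tumours 1, 2 and 6, and 1.05 and 1.08 in tumours 4 and 5. Fibroblast markers were higher in the same PoEM libraries (9 of 10, sums of 289 to 472 CPM against 29.2 to 41.6 CPM in non-PoEMs), and their part in the Colec12 value was not tested.

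Marco encodes a class A receptor that binds bacteria and particles and is known from resident macrophages of lung, spleen and liver. Marco (ENSMUSG00000026390, chromosome 1, 120474538 to 120505024, minus strand) had 56 counts in PoEMs and 4 counts in non-PoEMs of tumour 2, and 0 counts in both fractions of tumours 1, 4, 5 and 6. In tumour 2 this was 4.04 CPM in PoEMs and 0.262 CPM in non-PoEMs, a ratio of 15.4 (95% interval 5.70 to 58.6, exact binomial, counting error only). A count of 0 allows up to 3 counts, or 0.196 to 0.235 CPM in the 8 libraries at 0. Marco therefore fell under the filter on low counts and out of the edgeR test. The means (0.809 ± 1.81 CPM in PoEMs and 0.0524 ± 0.117 CPM in non-PoEMs, SD, n = 5 each) rest on tumour 2, and with 8 libraries at 0 a two-sided exact permutation test could not go below p = 0.444 for any split of these values. The edgeR fit with no filter on low counts did not call it (adjusted p = 0.407).

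The class B receptors went separate ways. Scarb1 (ENSMUSG00000037936, chromosome 5, 125277087 to 125341094, minus strand) measured 112.1, 108.2, 106.4, 93.7 and 112.7 CPM in PoEMs of tumours 1, 2, 4, 5 and 6, against 132.4, 141.2, 121.5, 115.7 and 128.7 CPM in non-PoEMs. Every PoEM library lay below every non-PoEM library, and tumour 5 was again the lowest of both groups. The mean was 106.6 ± 7.70 CPM in PoEMs and 127.9 ± 9.85 CPM in non-PoEMs (SD, n = 5 each), which is -0.26 ± 0.07 (SE) as a fitted log2 fold change, with adjusted p = 0.0247 by edgeR. The difference was modest, and its call was lost when the PoEM library of tumour 4 (adjusted p = 0.0515) or 5 (0.0531) or the non-PoEM library of tumour 2 (0.0677) was left out, and when both libraries of tumour 2 were left out (0.101). With the tumour as a block it held, also with any tumour left out (highest adjusted p = 0.00862), and PoEMs were at 0.766 to 0.876 of the non-PoEM level within each tumour.

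Scarb2 encodes the lysosomal membrane protein that carries glucocerebrosidase to lysosomes. Scarb2 (ENSMUSG00000029426, chromosome 5, 92441314 to 92506833, minus strand) measured 282.3, 311.2, 265.0, 329.5 and 367.2 CPM in PoEMs of tumours 1, 2, 4, 5 and 6, against 300.5, 308.9, 314.5, 336.8 and 291.9 CPM in non-PoEMs. The groups overlapped, and PoEMs were higher in 2 of 5 tumours, with the largest ratio, 1.26, in tumour 6 and the smallest, 0.843, in tumour 4. The means were 311.0 ± 40.1 CPM in PoEMs and 310.5 ± 17.0 CPM in non-PoEMs (SD, n = 5 each), which is 0.00 ± 0.08 (SE) as a fitted log2 fold change, with adjusted p = 0.992 by edgeR. PoEM libraries spread more widely than non-PoEM libraries for Scarb2 (coefficient of variation 12.9% in PoEMs and 5.48% in non-PoEMs), whereas for Msr1, Colec12 and Lrp1 the non-PoEM libraries had the wider spread (6.46% to 7.99% in PoEMs and 13.9% to 18.6% in non-PoEMs). These differences in spread were not tested.

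Olr1, the class E receptor for oxidised LDL, was the least abundant of the tested members. Olr1 (ENSMUSG00000030162, chromosome 6, 129485244 to 129507165, minus strand) measured 19.0, 28.9, 14.5, 24.8 and 29.4 CPM in PoEMs of tumours 1, 2, 4, 5 and 6, against 27.6, 26.1, 20.5, 24.1 and 38.6 CPM in non-PoEMs. The groups overlapped, with PoEMs lower in tumours 1, 4 and 6 and slightly higher in tumours 2 and 5. The means of 23.3 ± 6.44 and 27.4 ± 6.83 CPM (PoEMs and non-PoEMs, SD, n = 5 each) differed by -0.23 ± 0.22 (SE) as a fitted log2 fold change, with adjusted p = 0.529 by edgeR. It was not called with the tumour as a block either (adjusted p = 0.113), except when tumour 2 was left out of that fit (log2 fold change -0.34, adjusted p = 0.0289). Tumour 4 was the lowest and tumour 6 the highest library of both groups. Olr1 is also known from neutrophils of tumours, and the neutrophil markers were lower in the same PoEM libraries (7 of 8 tested, sums of 119 to 148 CPM against 221 to 295 CPM in non-PoEMs). Their part in the Olr1 value was not tested.

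Lrp1 (ENSMUSG00000040249, chromosome 10, 127538161 to 127621148, minus strand) measured 1871, 1649, 1962, 2043 and 1965 CPM in PoEMs of tumours 1, 2, 4, 5 and 6, against 1206, 1170, 1218, 1643 and 1249 CPM in non-PoEMs. The groups did not overlap, but by a narrow margin: the non-PoEM library of tumour 5, at 1643 CPM, stood well above the other non-PoEM libraries and just under the lowest PoEM library, at 1649 CPM. The mean was 1898 ± 152 CPM in PoEMs and 1297 ± 196 CPM in non-PoEMs (SD, n = 5 each), which is 0.55 ± 0.10 (SE) as a fitted log2 fold change, with adjusted p = 0.00334 by edgeR. The ratio within a tumour was 1.24 in tumour 5 and 1.41 to 1.61 in the others. The call held with any 1 library left out (highest adjusted p = 0.0126). Fibroblasts also use Lrp1, and 9 of 10 markers of fibroblasts were higher in these PoEM libraries too ( sums of 289 to 472 CPM in PoEMs and 29.2 to 41.6 CPM in non-PoEMs), and their part in the Lrp1 value was not tested.

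Msr1, Lrp1 and Scarb1 were thus the 3 members whose groups did not overlap, a state reached by 10.5% of all genes tested (5.38% with PoEMs higher and 5.13% with PoEMs lower). Msr1, Lrp1 and Colec12 were higher in PoEMs of 5 of 5 tumours, as were 17.4% of all genes tested. The tumours did not rank alike across these members. Tumour 1 had the smallest ratio for Msr1, tumour 5 for Lrp1 and tumour 4 for Colec12, and tumour 5 combined the largest ratio for Msr1 (1.70) with the smallest for Lrp1 (1.24). The spread of the within-tumour log2 ratio was lowest for Scarb1 (SD 0.08), followed by Msr1 (0.15), Lrp1 (0.15), Scarb2 (0.21), Colec12 (0.24) and Olr1 (0.32).

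**Figure D2:**
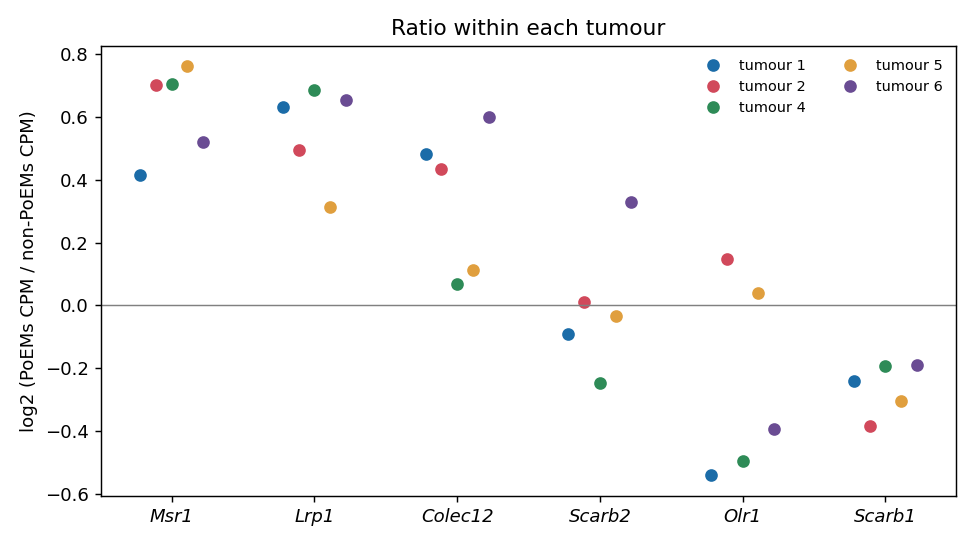
Log2 ratio of PoEM to non-PoEM CPM within each tumour (vertical axis) for the 6 members that passed the filter, with 1 point per tumour and the grey line at no difference. All 5 points lie above the line for Msr1, Lrp1 and Colec12 and below it for Scarb1, while those of Scarb2 and Olr1 fall on both sides.

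**Figure D3:**
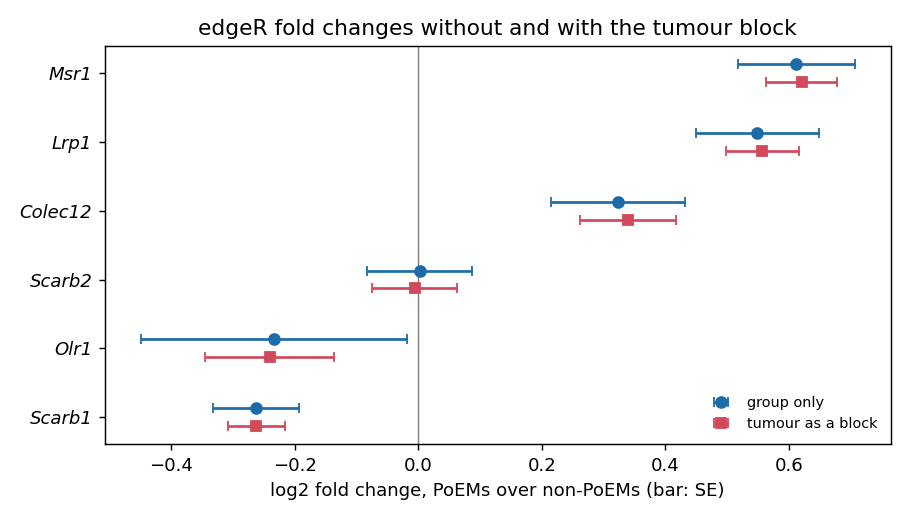
Fitted log2 fold change of PoEMs over non-PoEMs (horizontal axis, bars give the SE) for the same 6 members, from the fit on group alone (circles) and the fit with the tumour as a block (squares). The estimates nearly coincide, and the bars are shorter with the block, where Colec12 had an adjusted p of 0.0085 instead of 0.0683.

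Levels were compared between members per kb of exon, as CPM divided by the length of the merged exons of each gene (GENCODE M21). In PoEMs Msr1 was highest at 265 ± 17.1 CPM per kb, followed by Lrp1 at 107 ± 8.58, Scarb2 at 49.5 ± 6.38, Colec12 at 36.5 ± 2.40, Scarb1 at 12.5 ± 0.904 and Olr1 at 6.52 ± 1.80 CPM per kb (SD, n = 5). In non-PoEMs the order was the same, with Msr1 at 174 ± 24.1, Lrp1 at 73.2 ± 11.03, Scarb2 at 49.4 ± 2.71, Colec12 at 29.1 ± 5.43, Scarb1 at 15.05 ± 1.16 and Olr1 at 7.66 ± 1.91 CPM per kb (SD, n = 5). The ranges of neighbouring members did not overlap in either group, so this order held in every library. It rests on the exon length used. In CPM without length, mean Lrp1 lay above mean Msr1 in PoEMs (1898 and 1684) and in non-PoEMs (1297 and 1102). Mean Colec12 lay above mean Scarb2 in PoEMs (318.1 and 311.0) but not in non-PoEMs (254.2 and 310.5). Marco came last, at 2.10 CPM per kb in the PoEM library and 0.136 in the non-PoEM library of tumour 2, and at 0 elsewhere. The class A receptor Msr1 and the class A receptor Marco therefore stood at opposite ends of the order per kb.

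**Figure D4:**
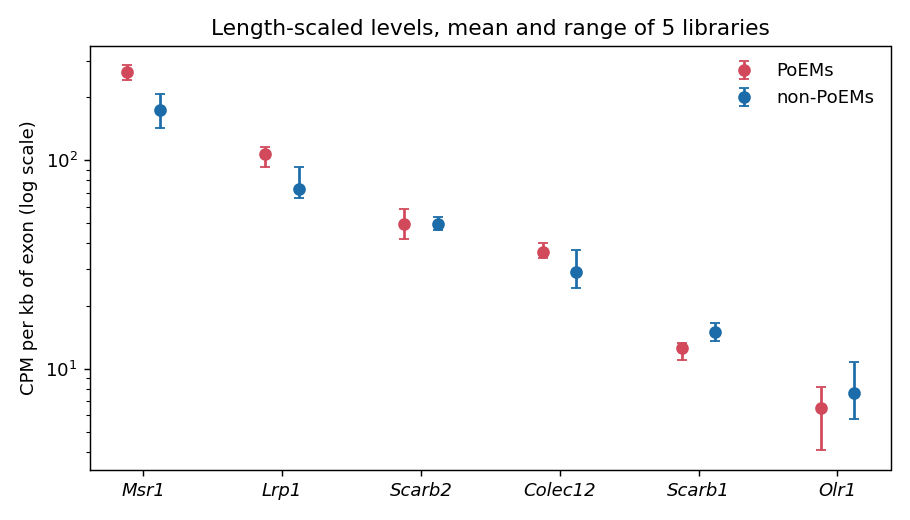
CPM per kb of exon (vertical axis, log scale) for 6 members in PoEMs (left of each pair) and non-PoEMs, as the mean with a bar from the lowest to the highest of 5 libraries. Marco is left out because it is at 0 in 8 libraries. Msr1 is highest and Olr1 lowest in both groups, and the order of the members is the same.

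Some genes resembled a member closely over the 10 libraries. Likeness was the root mean square difference between log2 CPM profiles, each centred on its own mean. The search covered 8779 genes whose log2 CPM averaged 3 or more, with predicted genes, clone-named genes and pseudogenes left out by symbol. The genes nearest to Msr1 were Brca1 (0.085) and Kif20b (0.088), those nearest to Lrp1 were Rassf8 (0.092) and Fnip2 (0.094), and those nearest to Colec12 were Pon3 (0.076) and Plod1 (0.078). Sub1 (0.056) and Serp1 (0.067) were nearest to Scarb1, and Atxn1 (0.053) and Atp6ap1 (0.058) to Scarb2. Olr1 had no neighbour as near, with C1rl at 0.148 and Hvcn1 at 0.199. The measure was not scaled to the spread of a gene, and Olr1 varied most between libraries among the tested members. The profiles also hold the difference between the groups. Log2 fold changes were 0.60 for Brca1, 0.64 for Kif20b, 0.60 for Rassf8 and 0.64 for Fnip2. The distances therefore do not rank shared regulation. No member was among the nearest genes of another member.

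Of 15 other scavenger receptor genes 10 were tested, and 2 were higher in PoEMs and none lower. Counts for this and the lists that follow stand beside 6.83% higher and 6.77% lower over all genes tested with group alone, and 13.8% higher and 14.3% lower with the tumour as a block. Cd36, a class B receptor for oxidised LDL and fatty acids, measured 8.50, 17.6, 14.0, 14.7 and 10.5 CPM in PoEMs of tumours 1, 2, 4, 5 and 6, against 5.40, 6.42, 4.27, 7.14 and 3.80 CPM in non-PoEMs. Its groups did not overlap, and it rose by 1.27 ± 0.22 on the log2 scale (SE, edgeR adjusted p = 0.00281). Stab1, which encodes the clearance receptor stabilin, measured 1785 ± 346 CPM in PoEMs and 1291 ± 173 CPM in non-PoEMs (SD, n = 5 each; fitted log2 difference 0.47 ± 0.13, SE, with edgeR adjusted p = 0.0323), and its groups overlapped. That call was lost when any of 6 libraries was left out (highest adjusted p = 0.0804), but with the tumour as a block it held with any tumour left out (highest adjusted p = 0.0354). The median log2 fold change of the list was 0.17, and with the tumour as a block 3 genes were higher and 1 lower. The class B relatives of Cd36 among the members, Scarb1 and Scarb2, had log2 fold changes of -0.26 and 0.00, and the difference between these genes was not tested.

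The LDL receptor family, to which Lrp1 belongs, had 3 of 10 other tested genes higher in PoEMs and 1 lower. Lrp12 measured 165.1 ± 16.9 CPM in PoEMs and 112.9 ± 20.3 CPM in non-PoEMs (SD, n = 5 each), which is 0.55 ± 0.12 (SE) as a fitted log2 fold change, with adjusted p = 0.00835 by edgeR. Vldlr, a receptor for triglyceride-rich lipoproteins, was higher at 1.16 ± 0.317 CPM in PoEMs and 0.434 ± 0.260 CPM in non-PoEMs (SD, n = 5 each, edgeR adjusted p = 0.0255). Vldlr passed the filter on low counts through its PoEM libraries. In non-PoEMs it had few counts, at 0.144 to 0.804 CPM, where 3 counts are 0.197 to 0.235 CPM. The edgeR fit with no filter also called it (adjusted p = 0.0268). Lrp8, an apolipoprotein E receptor, was higher by 0.34 ± 0.10 on the log2 scale (SE, edgeR adjusted p = 0.0411), and Lrp4 was lower, at 7.33 ± 1.29 CPM in PoEMs and 10.98 ± 2.17 CPM in non-PoEMs (SD, n = 5 each, edgeR adjusted p = 0.0239). Of these 4 calls only that for Lrp12 held with any 1 library left out. Those for Vldlr, Lrp4 and Lrp8 were lost with any of 4, 5 and 7 libraries left out, at adjusted p of up to 0.0716, 0.0627 and 0.119. With the tumour as a block Lrp4 and Lrp8 were called with any tumour left out (highest adjusted p = 0.0164 and 0.0359), and Vldlr was not without tumour 1 (0.0556) or 5 (0.059). The list median was 0.05, and with the tumour as a block 3 genes were higher and 2 lower.

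Genes for known partners and ligands of the receptors were higher in PoEMs in 5 of 11 tested cases, and none was lower (6.83% and 6.77% over all genes tested). This list, like the others, was chosen with earlier results of these data known, so the count does not test for an excess. With 1 library left out 4 to 5 genes were higher and 0 to 1 lower. With library size alone or with no filter on low counts 4 were higher. Lrpap1, the chaperone that keeps Lrp1 free of ligands on its way to the surface, measured 202.1, 214.5, 201.4, 219.5 and 222.7 CPM in PoEMs of tumours 1, 2, 4, 5 and 6, against 180.9, 176.7, 166.4, 180.4 and 182.2 CPM in non-PoEMs. Its groups did not overlap, and it was higher by 0.26 ± 0.05 on the log2 scale (SE, edgeR adjusted p = 0.00722). Both plasminogen activators, which are ligands of Lrp1, were higher. Plau measured 984 ± 217 CPM in PoEMs and 557.2 ± 86.6 CPM in non-PoEMs (SD, n = 5 each, edgeR adjusted p = 0.00502), and Plat 2.26 ± 0.537 CPM in PoEMs and 0.541 ± 0.289 CPM in non-PoEMs (SD, n = 5 each, edgeR adjusted p = 0.00153). Plat passed the filter on low counts through its PoEM libraries. In non-PoEMs it had few counts, at 0.213 to 0.918 CPM, where 3 counts are 0.197 to 0.235 CPM. The edgeR fit with no filter also called it (adjusted p = 0.000289). Cd9, a tetraspanin, measured 141.0 ± 16.7 CPM in PoEMs and 71.2 ± 17.6 CPM in non-PoEMs (SD, n = 5 each, edgeR adjusted p = 0.00191). The list median was 0.15, and with the tumour as a block 7 genes were higher and 2 lower (13.8% and 14.3% over all genes tested). The 2 lower genes were Lpl and Apoe, at log2 fold changes of -1.05 and -0.23 (edgeR adjusted p = 4.39e-06 and 0.0497 with the block). With group alone edgeR did not call them (adjusted p = 0.084 and 0.11). The fibroblast markers were higher in these libraries as well (9 of 10), and their part was not tested.

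Of 11 genes for sterol efflux and lysosomal lipid handling, 3 were higher in PoEMs and 1 lower. Abca1, which exports cholesterol from macrophages, measured 880.5 ± 84.8 CPM in PoEMs and 654.4 ± 84.3 CPM in non-PoEMs (SD, n = 5 each; fitted log2 difference 0.43 ± 0.10, SE, with edgeR adjusted p = 0.0115). Ch25h, an oxysterol-forming hydroxylase gene, was higher by 1.20 ± 0.22 and Nceh1, a cholesteryl ester hydrolase gene, by 0.24 ± 0.06 on the log2 scale (SE, edgeR adjusted p = 0.00608 and 0.0208). Nceh1 lost its call without the non-PoEM library of tumour 2 (adjusted p = 0.0577). Pltp, the phospholipid transfer protein gene, was lower, at 346.7 ± 75.2 CPM in PoEMs and 888.3 ± 464 CPM in non-PoEMs (SD, n = 5 each, edgeR adjusted p = 0.0384). Its groups overlapped, and the call was lost without any of 7 libraries (highest adjusted p = 0.0903) and with no filter on low counts (adjusted p = 0.0865). With the tumour as a block Pltp was called (adjusted p = 0.0464), but not with any tumour left out of that fit (0.0506 to 0.137). The list median was 0.08, and with the tumour as a block 5 genes were higher and 2 lower.

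Among 17 genes for the uptake of apoptotic cells 1 was higher and none lower. Mfge8, a secreted bridge between phosphatidylserine and integrins, measured 73.8 ± 28.0 CPM in PoEMs and 31.8 ± 14.0 CPM in non-PoEMs (SD, n = 5 each; fitted log2 difference 1.22 ± 0.33, SE, with edgeR adjusted p = 0.0373). It was higher in 5 of 5 tumours, but its call was lost without any of 8 libraries (highest adjusted p = 0.0933, with log2 fold changes of 0.97 to 1.52) and with no filter on low counts (adjusted p = 0.0857). With the tumour as a block it was called (adjusted p = 2.26e-06), also with any tumour left out (highest adjusted p = 4.12e-05). The list median was 0.01, equal at this precision to that of all genes tested, and with the tumour as a block 4 genes were higher and 1 lower.

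**Figure D5:**
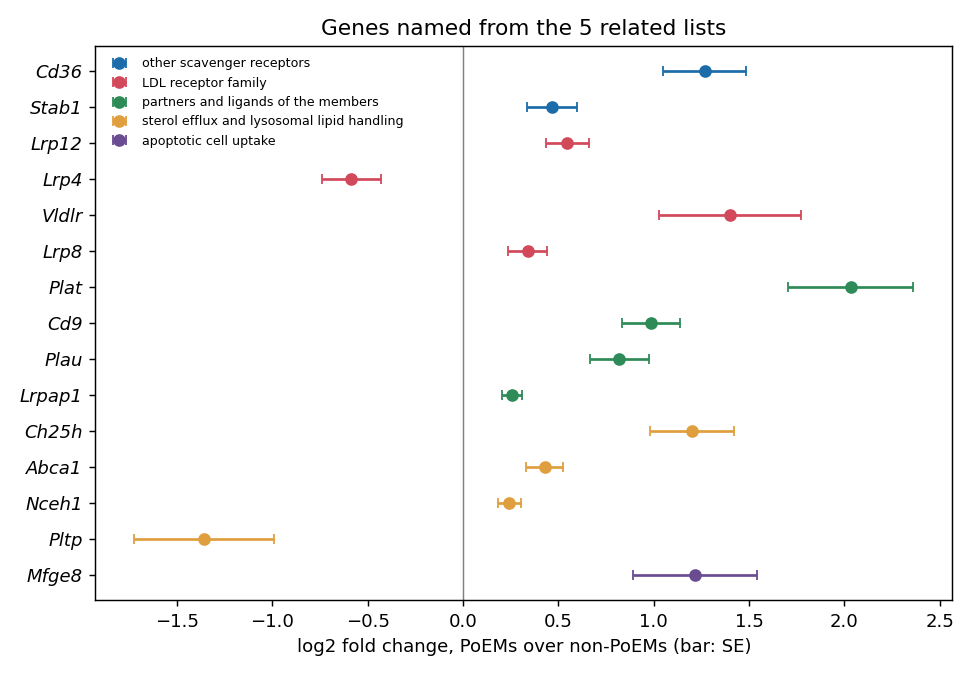
Fitted log2 fold change of PoEMs over non-PoEMs (horizontal axis, bars give the SE) for the 15 called genes named from 5 related lists, coloured by list, with the grey line at no difference. Lrp4 and Pltp lie below 0, and the other genes lie above it, with Plat at 2.03 the highest. Plat and Vldlr had few counts in non-PoEMs.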

How the data were processed

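The authors deposited 1 table of raw counts per gene for 10 libraries, per the file headers. The tools in the submitters' processing notes are STAR 2.5.2b, Bowtie2 2.3.3.1, featureCounts 1.5.3 and cutadapt 1.15. Their roles, the annotation, the genome build and how strand and multi-mapping reads were handled: not given in the sources used here. SMART-Seq reads carry no molecular identifiers here, so intervals and floors cover counting error only. Positions and exon lengths came from GENCODE M21 (GRCm38) and serve identification. Without strand, overlapping genes cannot be told apart from a member: the antisense gene Gm16217 in Lrp1 had at most 5 counts per library and Gm7497 in Colec12 at most 8.

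The test was that of edgeR 4.0.16 run under R 4.3.3 (filterByExpr, minimum count 10 and minimum total 15, TMM scaling, robust quasi-likelihood test, group as the only term). Of 46603 genes 13595 were tested. The procedure was checked on simulated data drawn without any effect of the tumour. SE is the absolute log2 fold change divided by the square root of the F statistic, and adds nothing to the p-value. Libraries with the same tumour number in the labels deviated together (r of 0.226 to 0.481 over genes for the 5 tumours). The fit with the tumour as a block is therefore given where it changes the call of a member or a gene named from the lists. For the other list genes it is given only as counts for each list. Libraries of the same group differed by more than sampling noise (chi-square per gene at least 7.60). For Marco, below the filter, exact permutation over 252 splits was set but cannot pass the threshold with 8 libraries at 0. Alternatives were size factors of DESeq2, library size alone, no filter, the DESeq2 1.42.0 test, each library left out and each tumour left out. The members and lists were chosen with earlier results of these data known. From each of 5 lists up to 4 called genes of lowest p were named, and the 2 genes nearest in profile to each member. Lpl and Apoe, called lower only with the tumour as a block, were named as well. 1 called list gene is not reported here. Other cell types were followed by 12 marker lists.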

Additional observations from a re-analysis of the deposited data

Results flagged for a closer look

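Chance alone singles out about 1 group in 20 by this kind of check, and 14 groups of 5 libraries were examined, 2 for each member. In both groups Marco stood apart through tumour 2, at 4.04 CPM in PoEMs and 0.262 CPM in non-PoEMs, with the other 4 libraries of each group at 0. With 4 libraries at 0, any count in the remaining library passes this check, so the rate of 1 in 20 does not apply to Marco. The third value was Lrp1 in non-PoEMs of tumour 5, at 1643 CPM, whose gap to the next library, at 1249 CPM, was 0.833 of the range of that group.

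Marco was 1 of 62 genes with at least 10 counts in tumour 2 and none in the other 8 libraries. No other tumour had such a gene. By symbol 57 of the 62 were immunoglobulin heavy or light chain genes. Together the 62 genes held 481 counts in PoEMs and 1095 counts in non-PoEMs of tumour 2, so that the sum was lower in PoEMs while Marco, at 56 and 4 counts, was higher. Whether these genes and Marco share a source was not tested.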

How the results depend on the processing

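Msr1 and Lrp1 kept their direction and their call under every alternative run. With the replicate block the number of genes higher was 1880 and lower 1950, against 929 and 920 with group alone. With 1 library left out these counts ran from 617 to 1049 higher (617 without PoEMs of tumour 4) and from 577 to 1026 lower (577 without non-PoEMs of tumour 2, 588 without PoEMs of tumour 4). With a tumour left out and the block kept they were 1505, 1360, 1447, 1398 and 1925 higher and 1692, 1380, 1677, 1564 and 2016 lower without tumours 1, 2, 4, 5 and 6. Without tumour 2 and without the block, a choice made after seeing the data, they were 514 and 503, with 2 members higher and 0 lower. Members called lower ranged from 0 to 1 with a library left out and from 1 to 2 with a tumour left out and the block kept.

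Scarb1 had log2 fold changes of -0.297 to -0.219 with a library left out (-0.267, -0.219 and -0.225 in the 3 cases where the call was lost), and -0.230 without tumour 2. Colec12 was called with the block (0.339) and with library size alone (0.333), and ranged from 0.267 to 0.426 with a library left out and from 0.274 to 0.401 with a tumour left out and the block kept (0.299, 0.315, 0.401, 0.394 and 0.274 without tumours 1, 2, 4, 5 and 6). Olr1 was called only without tumour 2 with the block (-0.344). The value of Scarb2 lay so near 0 that its sign changed with the block (-0.00544), with DESeq2 size factors (-0.0037), with the DESeq2 test (-0.00215) and without tumour 2 (-0.000384). It ranged from -0.064 to 0.0486 with a library left out and from -0.0896 to 0.0484 with a tumour left out and the block kept (-0.0101 without tumour 2, -0.00171 without tumour 5), never called. The Marco difference in mean CPM, 0.756, was -0.0523 without PoEMs of tumour 2, and -0.0523 to 0.962 with any library left out. Of the 15 genes named from the lists that were called with group alone, 8 kept their call with any 1 library left out. The causes were not tested. Marco could not be fitted in the filtered model, and its 8 libraries at 0 counts limit it to 3 counts each.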
